A study of Schizosaccharomyces pombe with 4 samples.

Results

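The baseline of growing wild-type fission yeast, *Schizosaccharomyces pombe*, is described here from 2 of the 4 sequenced samples: which RNAs the cells held, and how completely each intron had been removed from its transcript. The members were chosen by label alone, as the 2 libraries of the wild-type strain, and the mutant libraries were not used. The wild type was strain ED668, a haploid of mating type h+ that carries the alleles ade6-M216, ura4-D18 and leu1-32, and both cultures carried all of these alleles. The cultures were grown separately in YES, a rich medium of yeast extract with supplements, at 32 °C to an OD600 of 0.4, and RNA was depleted of rRNA before strand-specific libraries were made. The table holds 12383 loci, of which 7022 are transcripts and 5361 introns. Transcript reads came to 24674717 in culture 1 and 35330065 in culture 2, so a given locus was read more deeply in culture 2. Because there is 1 group of 2 cultures, every value is a description, given for culture 1 and then culture 2, and no test was run.

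An intron is removed by the spliceosome in a pair of reactions. The 5′ splice site is first joined to an adenosine at the branch site, which forms a lariat, and the exons are then ligated while the lariat is released, debranched and degraded. Many fission yeast genes carry introns, most of them short, and unspliced RNA is usually kept scarce by rapid splicing and by nuclear and cytoplasmic decay. A read across the 5′ exon-intron boundary (EI) comes from RNA that is still unspliced there, and a read across the exon-exon junction (JR) comes from spliced RNA. The unspliced share used below is EI as a percentage of EI plus JR.

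The introns of the 2 ends of that range are shown first, since the results turn on them. Capitals mark the first 6 bases, the last 3 bases and, where present, the match to CTAAN closest to the 3′ end that lies in bases 45 to 4 before the end. Matches to CTAAN were sought on the transcribed strand only and were found in that window in 71.8% of the 5303 nuclear introns. Sequences are from RefSeq assembly ASM294v3, and each intron lies between 2 exons in the annotation of the table. The first 3 introns below were among the least spliced, the next is the other intron of prp10, and the last 4 had no boundary read in either culture.
prp10 intron 1 (chrI:4336727-4336777, minus strand): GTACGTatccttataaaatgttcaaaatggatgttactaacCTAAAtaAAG
spp41 intron 1 (chrII:3327047-3327093, plus strand): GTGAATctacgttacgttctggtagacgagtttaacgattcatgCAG
not11 intron 1 (chrI:1578446-1578491, plus strand): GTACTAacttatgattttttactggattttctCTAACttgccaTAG
prp10 intron 2 (chrI:4336556-4336621, minus strand): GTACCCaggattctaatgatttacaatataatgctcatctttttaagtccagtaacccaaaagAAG
rpl3602 intron 1 (chrII:3153724-3153798, plus strand): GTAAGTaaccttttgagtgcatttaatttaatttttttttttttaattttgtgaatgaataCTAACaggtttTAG
ilv6 intron 3 (chrII:2211006-2211085, plus strand): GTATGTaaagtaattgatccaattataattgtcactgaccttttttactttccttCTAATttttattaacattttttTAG
cdc37 intron 1 (chrII:1831212-1831271, plus strand): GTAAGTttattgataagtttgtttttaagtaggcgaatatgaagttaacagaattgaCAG
dss1 intron 2 (chrI:5383272-5383311, plus strand): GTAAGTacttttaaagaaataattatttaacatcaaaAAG

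Protein-coding RNAs took most of the reads, and the noncoding classes differed widely in level. Nuclear protein-coding transcripts held 83.2% and 82.6% of all counted reads, noncoding RNAs 7.15% and 7.33%, and introns 1.96% and 2.03%. The snoRNAs, which guide modification and processing of rRNA, held 3.63% and 3.62%. The snRNAs, a class by identifier that includes the spliceosomal RNAs and the U3 RNA of rRNA processing, held 1.26% and 1.61%. The rRNAs held 0.00574% and 0.0069%, in libraries made after rRNA depletion and from which reads that matched several loci had been removed. Of the 1444 and 2490 reads of that class, the mitochondrial SPRRNA.01 had 923 and 1443 and the mitochondrial SPRRNA.02 440 and 653. Mitochondrial protein genes took 1.19% and 1.18%, and mitochondrial tRNAs 1.09% and 1.07%. Of the intron counts, 50.4% and 50.5% lay in 5 loci, so the share of introns is not a measure of unspliced RNA in general. The mitochondrial SPMIT.05 intron had 115422 and 151769 reads, and SPMIT.06 within it 114834 and 150920. The shares of introns and of mitochondrial protein genes thus both include the reads of that stretch.

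**Figure D1:**
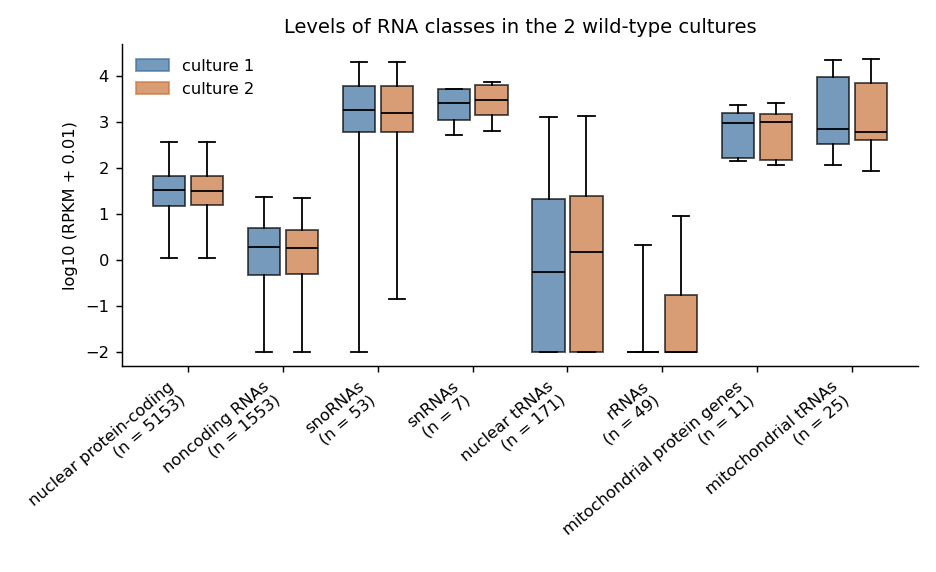
Level of each locus by RNA class, as log10 of RPKM plus 0.01, in culture 1 and culture 2. Boxes span the quartiles with the median as a line, and whiskers reach the 5th and 95th percentiles. Coding transcripts had medians of 31.9 and 31.8 RPKM, against 1.87 and 1.79 RPKM for noncoding RNAs.

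Level is given as RPKM, the reads of a locus scaled by its exon length and by the library total. The median coding transcript stood at 31.9 and 31.8 RPKM, with quartiles at 15.0 and 67.3 RPKM in culture 1. Of 5153 coding transcripts, 4963 (96.3%) had at least 10 counts in each culture and 76 had none in either. The distribution was broad at the top: 102 transcripts exceeded 1000 RPKM on average, 3427 lay between 10 and 100 RPKM, and the 100 with the most reads held 31.7% and 31.5% of all coding reads. Noncoding RNAs were far lower, with medians of 1.87 and 1.79 RPKM, and 1155 of 1553 (74.4%) had at least 10 counts in each culture. The reads of that class were concentrated, with 55.2% and 57.0% of them in 5 loci.

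The snRNAs and snoRNAs had the highest class medians per length. The median snoRNA had 1786 and 1579 RPKM, the median snRNA 2522 and 3025 RPKM, and the median mitochondrial protein gene 939 and 977 RPKM. Mitochondrial tRNAs had a median of 708 and 588 RPKM with all 25 detected. Nuclear tRNAs had medians of 0.54 and 1.49 RPKM, only 54 of 171 had at least 10 counts in each culture, and 61 had none in either. Many nuclear tRNA genes are near-identical copies, whose reads are lost when reads matching several loci are removed, so these levels are uncertain and cannot be set against those of other classes.

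Glycolysis led the coding transcripts. The aldolase gene fba1 was highest at 8280 and 7937 RPKM, followed by the enolase gene eno101 at 7418 and 7377 RPKM. The phosphoglycerate mutase gene gpm1 had 6354 and 6230 RPKM. The glyceraldehyde-3-phosphate dehydrogenase gene tdh1 had 5950 and 6493 RPKM, the only one of these 4 that was higher in culture 2. The pyruvate decarboxylase gene pdc101, which leads into fermentation, had 6160 and 5905 RPKM, and the triose-phosphate isomerase gene tpi1 had 4634 and 4711 RPKM. All 19 listed genes of glycolysis and fermentation had at least 10 counts in each culture, and together they took 8.44% and 8.43% of coding reads. Paralogs of the same step were far apart: eno102 had 9.55 and 10.4 RPKM, pdc202 4.22 and 4.71 RPKM, and pdc201 1.42 and 1.55 RPKM.

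Ribosomal proteins formed the other large group. The 138 cytosolic ribosomal protein genes took 13.7% and 13.5% of coding reads, with a median of 962 and 950.1 RPKM, and all 138 lay above the median coding transcript. The highest were rpl4301 (3794 and 3800 RPKM), rpl14 (3766 and 3802 RPKM) and rpl6 (3792 and 3684 RPKM). The lowest were rps502 (77.6 and 84.1 RPKM), rpl1201 (53.3 and 48.8 RPKM) and rpl1603 (39.0 and 40.3 RPKM). Many of these proteins are encoded by close paralogs, whose shared reads were removed, so the level of a single copy is uncertain. The 39 mitochondrial ribosomal protein genes, which serve the organelle's own ribosomes, had a median of 34.3 and 35 RPKM, close to that of all coding transcripts.

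The translation factors tef3, an elongation factor, and tif51, the eIF5A gene, had 2885 and 2650 RPKM and 2708 and 2335 RPKM. Actin, act1, had 3503 and 3555 RPKM. The chaperones ssa2, hsp90 and sks2, of the Hsp70 and Hsp90 families, had 2630 and 2944, 2386 and 2777, and 1903 and 1396 RPKM. The splicing factors were moderate, with 76 of 80 listed genes found, a median of 42.2 and 40.2 RPKM and 51 above the coding median. The highest of them were srp1, an SR protein (380 and 375 RPKM), and snu13, which binds U4 snRNA (376 and 378 RPKM). The RNA surveillance genes were alike in level, with a median of 42.3 and 44.6 RPKM, led by the exosome nucleases dis3 (138 and 135 RPKM) and rrp6 (95.4 and 97.1 RPKM).

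Genes of meiosis and sporulation were low in these growing cells. Their median was 2.44 and 2.41 RPKM over 40 genes, and 3 lay above the coding median. Those included spo15, a spindle pole body protein needed for sporulation (142 and 133 RPKM), and mcp7 (60.4 and 55.1 RPKM). At the other end were mfr1, an activator of the anaphase-promoting complex in meiosis (0.13 and 0.18 RPKM), the meiotic cyclin gene rem1 (0.19 and 0.04 RPKM) and the kinase gene spo4 (0.03 and 0.12 RPKM). The Tf2 retrotransposons, of which the genome holds near-identical copies, reached at most 0.21 RPKM on average, and 1 of 13 had at least 10 counts in each culture. Reads matching several loci had been removed, so these values are not a measure of how much Tf2 RNA was present.

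The markers of the strain were as follows. The ura4 gene, labelled ura4-D18, had 0 reads in both cultures. The ade6 and leu1 genes, labelled ade6-M216 and leu1-32, were both transcribed, at 173 and 162 RPKM and 590 and 628 RPKM. Of the P-cell markers, expected in an h+ strain, map3 (the M-factor receptor) had 4.72 and 4.74 RPKM and map2 (the P-factor pheromone) 1.48 and 1.05 RPKM, and the other 4 listed markers had no locus matched by symbol. Of the M-cell markers, mat1-Mc and mat3-Mc had 0 reads, mam1 had 8.63 and 9.65 RPKM, mfm3 6.68 and 4.25 RPKM, mfm2 2.07 and 2.04 RPKM and mfm1 3 and 7 reads. The Mc gene is listed at both mat1 and mat3, and reads matching several loci had been removed. Its 0 reads therefore do not show an absence of its RNA. Of the 10 listed M-cell markers 9 were found, 4 had at least 10 counts in each culture, and the median was 0.157 and 0.255 RPKM. Low levels of both sets were thus read, and mam1 was above map3 and map2.

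In the noncoding class srp7, the RNA of the signal recognition particle, was highest at 34894 and 42003 RPKM. SPNCRNA.906 followed with 24325 and 23330 RPKM, but it lies at chrI:3394883-3395271 on the strand of the snoRNA snR30 (chrI:3394875-3395200) and had 235468 and 323917 reads against 252729 and 346700 for snR30, so the reads of the pair cannot be told apart and the share of noncoding RNAs includes them. The snoRNAs were led by snoU14 (40585 and 40047 RPKM) and snR30 (31154 and 29797 RPKM), both needed to process rRNA. Among the snRNAs snu32 stood at 9774 and 13078 RPKM and snu3, the U3 RNA of rRNA processing, at 5210 and 7206 RPKM. Of the 318336 and 579659 reads of that class, snu32 had 98993 and 189984 and snu3 82457 and 163586. The spliceosomal snu2 (U2) had 4944 and 5238 RPKM, snu1 (U1) 2522 and 2931 RPKM and snu5 (U5) 2293 and 3025 RPKM, all higher in culture 2. Of the mitochondrial protein genes SPMIT.10 was highest at 2657 and 2835 RPKM.

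The cultures were close to each other for most transcripts. Across the 6266 transcripts with at least 10 counts in each culture, r of log2 RPKM was 0.996, a description across loci of 2 libraries. The median absolute log2 difference was 0.09, against 0.04 that counting error alone would give. Of 5430 transcripts with at least 100 reads in each culture, 10 differed more than 2-fold, and all 10 were higher in culture 2.

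**Figure D2:**
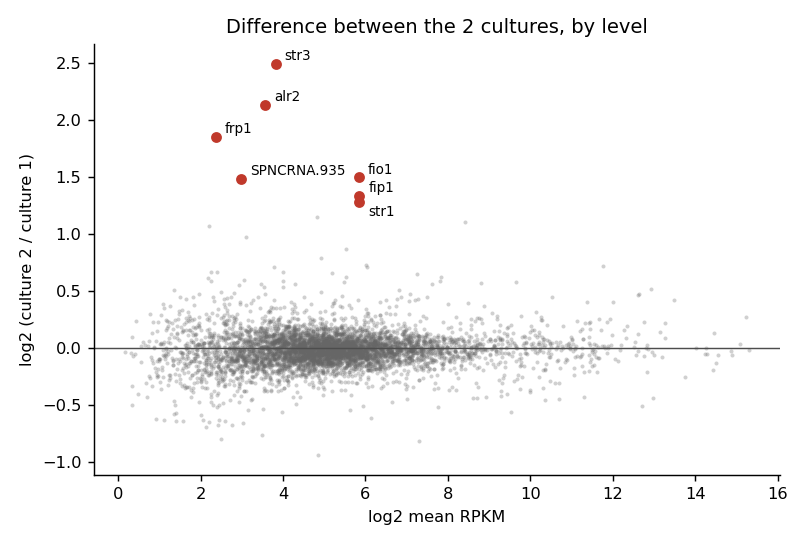
Log2 ratio of culture 2 over culture 1 against log2 mean RPKM for the 5430 transcripts with at least 100 reads in each culture. Each point is a transcript, and the 7 with the largest difference are in red, from str3 at 2.49 to str1 at 1.28.

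The 5 largest differences were as follows. The transporter gene str3 had 223 reads in culture 1 and 1802 in culture 2, a log2 difference of 2.49 in RPKM. The alanine racemase gene alr2 followed at 2.13, frp1, a ferric-chelate reductase, at 1.85, and fio1, the multicopper oxidase of iron transport, at 1.50. The noncoding SPNCRNA.935 differed by 1.48. The next were fip1, the iron permease that works with Fio1, at 1.34, and str1, a siderophore transporter, at 1.28, both named after their values were seen, as were SPNCRNA.1071 (1.15), hsp9 (1.11) and SPBC36.02c (1.07), which complete the 10. The genes fio1 and fip1 had 30.1 and 32.8 RPKM in culture 1 and 84.9 and 82.9 RPKM in culture 2. With 1 culture on each side, whether such a difference is larger than the usual spread of wild-type cultures was not tested.

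Most of the introns that were read deeply enough to be measured were spliced nearly completely. Outside tRNA genes the nucleus held 5303 introns with a width of 30 bases or above, and 2690 introns in 1663 hosts had at least 20 EI plus JR reads in each culture. Their median unspliced share was 1.46% and 1.90%, and the share of all their summed reads was 2.26% and 2.44%. The upper quartile was 5% and 5.07%. No EI read was seen in 938 and 631 of them, and in 421 introns (15.7%) in both cultures. With a median of 62 and 90 reads an intron, a count of 0 is a limit set by depth and not an absence.

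**Figure D3:**
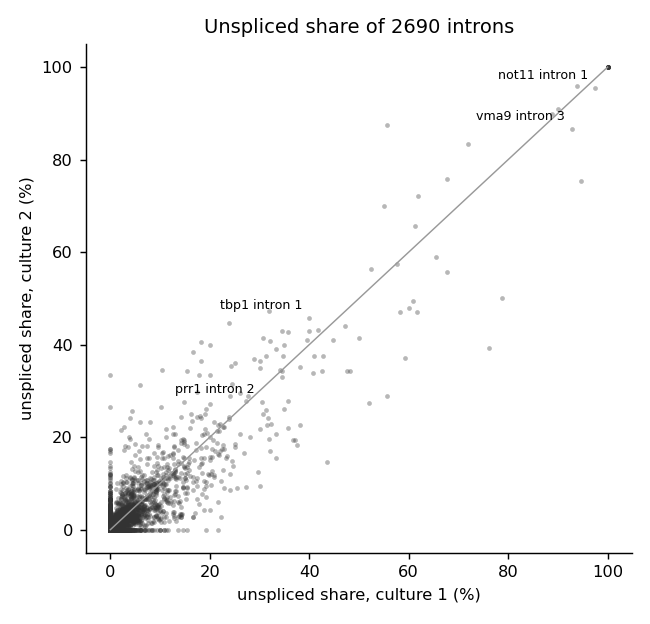
Unspliced share of each of 2690 introns in culture 1 and culture 2, in percent, with the line of equality in grey. Most introns lie near the origin, and 26 lie above 50% in both cultures.

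An unspliced tail was shared by the cultures. In both, 253 introns (9.41%) exceeded 10% and 26 (0.967%) exceeded 50%. Across introns r of the unspliced share was 0.914, and the median absolute difference was 1.24 percentage points. Of the 26, 5 do not coincide with an intron of the RefSeq annotation, whereas 13 of all 2690 do not. Those 13 had 46.9% and 54.7% of their summed reads unspliced, with medians of 8% and 21.4%, and 6 of them exceeded 10% in both cultures.

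The 12 introns with the highest share among the 880 with at least 100 reads were followed singly. Intervals are Wilson 95% intervals and cover counting error only. The first intron of prp10, which encodes a core protein of the U2 snRNP (the SF3B1 protein in human), had 393 and 550 EI reads and 0 JR reads. Its unspliced share was thus 100% in both cultures, with lower bounds of 99% and 99.3%, and a count of 0 allows a spliced share of up to 0.763% and 0.545%. Only 21 and 23 reads were assigned to the body of that 51-base intron. Its intron RPKM, from intron and EI reads over a narrow width, was 326 and 315, against 82.5 and 82.6 for the host. Whether all these EI reads came from the prp10 transcript was not tested. The second intron of the same gene, shown above with it, had 122 and 168 JR reads and 0 and 5 EI reads, or 0% and 2.89%, so this host spans nearly the whole range.

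The first intron of spp41 was the other one with no JR read, at 134 and 168 EI reads, and the second intron of that gene was 14.8% and 19.3% unspliced. The first intron of not11, a subunit gene of the Ccr4-Not complex, had 235 and 365 EI reads against 6 and 17 JR reads, or 97.5% and 95.5%. The introns of nup189, a nucleoporin gene (93.8% and 95.9%), and of plb3, a phospholipase gene (88.8% and 89.9%), are among those not in RefSeq. Intron 3 of vma9, a vacuolar ATPase gene, lies between coding exon and 3′ UTR and was 92.9% and 86.7% unspliced. The 6 introns from prp10 to vma9 were the only ones of the 880 above 50% in both cultures. Intron RPKM was also above host RPKM for not11 (230 and 250 against 30.1 and 32.3) and vma9 (518 and 410 against 51.4 and 55.6). The same held for spp41 and plb3, but not for nup189 (94.4 and 107 against 119 and 127). Whether the EI reads of these 6 introns all came from the host transcript was not tested.

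Below them came a gap, and then introns with both forms. The first intron of tbp1, the TATA-binding protein gene, had 162 and 306 EI reads and 243 and 364 JR reads, or 40% (35.3 to 44.8%) and 45.7% (41.9 to 49.5%). The second intron of SPBC651.07 stood at 40.8% and 33.9%, and the sole intron of sds22, a regulator of protein phosphatase 1, at 33.3% and 39.0%. The second intron of prr1, a transcription factor gene, is 756 bases wide and was 30.5% and 27.7% unspliced. In each of these the intervals of the cultures overlapped. The sole intron of rpl39, between exon and 3′ UTR, was 22.7% and 22.2% unspliced from 350 and 459 EI reads and 1191 and 1607 JR reads, and the first intron listed for osh41 was 22.8% and 22.2%.

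At the other end, 72 of the 880 introns had no EI read in either culture. The sole intron of rpl3602, a ribosomal protein gene, had 1807 and 2869 JR reads, which allows an unspliced share of up to 0.166% and 0.105%. Intron 3 of ilv6, of branched-chain amino acid synthesis, had 1099 and 1670 JR reads, and intron 5 of rmt1, an arginine methyltransferase gene, 569 and 778. The same held for introns of ypt3 (a Rab GTPase), atp18 (ATP synthase), cdc37 (a co-chaperone of Hsp90), rpl1202 and dss1 (proteasome), with 309 to 507 JR reads in culture 1. Some of these introns still held many intron reads. For ilv6 intron RPKM was 140 and 126, against 367 and 359 for the host. For ypt3 it was 82.5 and 124 against 156 and 152, and for atp18 42.6 and 44.0 against 79.0 and 88.9. Relative to the host it was lower in the others, as in rpl3602 (12.9 and 19.1 against 1174 and 1198). The source of these reads was not tested. The 40-base second intron of dss1 has the same width as the mostly unspliced intron 3 of vma9, so narrow introns occurred at both ends.

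Introns of one host could differ widely. Besides prp10 and spp41, the range among introns with at least 100 reads was 22.4 and 22.2 percentage points in osh41, 20.9 and 15.6 in rpb9, a subunit of RNA polymerase II, and 16.3 and 14.8 in sec8, an exocyst gene. In rpb9 intron 2 was 0.935% and 0.676% unspliced and intron 4 21.8% and 16.2%. Of the splicing factor genes, prp10 and snu23 had an intron over 20% unspliced. That of snu23 had 44 and 75 EI reads and 0 JR reads, and is not in RefSeq. No intron of the meiosis list was over 20% in both cultures, with only 2 of them read deeply enough.

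**Figure D4:**
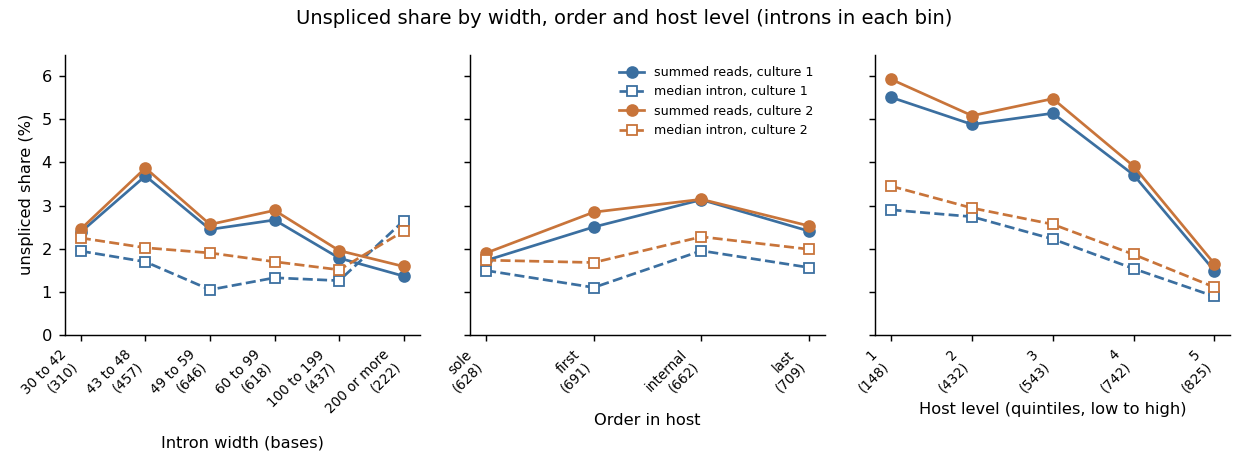
Unspliced share in percent by intron width, by order in the host and by quintile of host level, with the number of introns in brackets. Filled points give the share of summed reads and open points the median intron, for each culture. Both measures were lowest in the highest quintile of hosts, at 1.49% and 1.65% of summed reads, whereas the measures disagree on the widest introns.

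The unspliced share varied with the level of the host. Hosts were ranked by mean log2 RPKM, and introns of the lowest quintile (under 14.3 RPKM) had 5.51% and 5.92% of summed reads unspliced. The values were 4.88% and 5.08% in quintile 2, 5.14% and 5.48% in quintile 3, 3.71% and 3.91% in quintile 4 and 1.49% and 1.65% in the highest (over 82.2 RPKM). The median intron fell at each step, from 2.90% and 3.45% to 0.893% and 1.11%. Across introns the rank correlation with host level was weak (Spearman's rho of -0.09 and -0.15, n = 2690), and depth moves with host level by construction. Only 148 of 1130 introns in the lowest quintile reached the minimum of 20 reads, against 825 of 924 in the highest, and with a minimum of 100 the difference between these quintiles was 1.06 in place of 4.15 percentage points.

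The ribosomal protein introns stood at the spliced end of this order. The 82 of them had 0.759% and 0.850% of summed reads unspliced, and the 6 of translation factors 0.164% and 0.331%. Introns of splicing factors had 5.26% and 5.64% of summed reads unspliced but a median of 0.758% and 1.42%, the gap between the measures being made by few introns, prp10 among them.

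Intron width gave no single order. In summed reads, introns of 43 to 48 bases were least spliced (3.69% and 3.87%) and those of 200 bases or more most spliced (1.36% and 1.59%), with 2.39% and 2.45% at 30 to 42 bases. The median intron gave the opposite for the widest class, at 2.65% and 2.41%, above every other class. There, 16.7% of introns exceeded 10% unspliced in both cultures, against 6.35% at 49 to 59 bases. In the class of 43 to 48 bases, 2 introns held 23.9% and 24.9% of the EI reads, and at 49 to 59 bases, where prp10 intron 1 falls, 2 held 32.6% and 32.0%. The widest hosts also stood higher, with a median host level of 95.7 RPKM for introns of 200 bases or more against 41.3 RPKM at 30 to 42 bases. Within the highest quintile of hosts, introns of 100 bases or more had 0.893% and 1.05% of summed reads unspliced and those of 30 to 48 bases 1.75% and 1.83%. In the other 4 quintiles the order was the other way, from 10.7% and 10.02% against 4.31% and 4.67% in the lowest to 4.401% and 4.76% against 3.81% and 3.94% in quintile 4, with 5.57% and 5.69% against 5.48% and 5.62% in quintile 2.

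The 5 widest of the 2690 introns illustrate the spread. That of elo1, of 837 bases, had 0 EI reads and 40 and 49 JR reads. Intron 3 of gnd1, of 817 bases, was 34.5% and 34.3% unspliced. Those of cit1 (784 bases) and rad25 (717 bases) were 9.52% and 5.13%, and 3.13% and 2.09%, and that of prr1 is given above.

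Order in the host made a small difference that depended on the measure and on the host quintile. In summed reads, sole introns had 1.73% and 1.90% unspliced, first introns 2.50% and 2.85%, internal introns 3.13% and 3.14% and last introns 2.41% and 2.53%. In medians, first introns were the lowest in both cultures, at 1.10% and 1.68%, and internal introns the highest, at 1.95% and 2.27%. Summed reads within host quintiles did not keep the order of sole and internal introns. Sole introns exceeded internal ones in quintile 1 (6.92% and 6.59% against 4.99% and 5.75%) and quintile 2 (6.65% and 6.05% against 4.95% and 4.77%). The same held in quintile 4 (4.61% and 4.59% against 3.07% and 3.18%). Sole introns were lower in quintile 3 (3.83% and 3.86% against 5.64% and 5.59%) and quintile 5 (1.28% and 1.47% against 2.34% and 2.33%). Within 452 hosts with both ends measured, the first intron was higher in both cultures in 140 and the last in 158, with a median difference of 0. Sole introns exceeded 10% most often, in 77 of 628 (12.3%), against 48 of 691 first introns (6.95%). Introns between 5′ UTR and exon had 4.73% and 5.76% of summed reads unspliced and exceeded 10% in 11 of 47, and the 4 between exon and 3′ UTR had 27.6% and 27.0%. Those 4 include the introns of rpl39, vma9 and osh41 given above. That of osh41 carries this label although it is listed as the first of 7.

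The splice sites were compared by their letters. The commonest first 6 bases were GTAAGT (27.4% of nuclear introns), with 1.79% and 2.03% of summed reads unspliced, and GTATGT (19.6%), with 1.36% and 1.51%. Introns with any other start stood at 3.67% on average over the cultures, but in host quintile 4 they were lower (3.87% and 4.02%) than those starting GTAAGT (4.18% and 4.61%). Among rarer starts, GTATTT (1.47% and 1.57%), GTGAGT (1.59% and 1.84%) and GTATGG (1.64% and 1.84%) lay as low as these. The highest were GTAAAA (7.77% and 8.10%, 20 introns), GTACGA (7.30% and 6.94%, 32 introns) and GTTTGT (6.56% and 6.75%, 40 introns), with medians of 0.842% to 3.66%, so single introns weigh heavily in them. GTACGA starts the intron of plb3 and GTTTGT that of vma9. The introns printed above were taken from the extremes and do not show a rule: intron 2 of prp10, which starts GTACCC, and intron 1 of ypt3, which starts GTATAT and had 0 EI reads, were spliced with other starts.

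At the 3′ end, introns ending TAG (68.3% of nuclear introns) had 1.97% and 2.14% of summed reads unspliced, CAG (19.0%) 3.13% and 3.25%, and AAG (12.4%) 3.73% and 3.96%, while the medians lay between 1.39% and 2.05%. The letters CTAAC, in bases 45 to 4 before the end of 44.1% of nuclear introns, went with 2.16% and 2.32%, and introns without them had 2.36% and 2.57%. For CTAAN the values were 2.21% and 2.42% with the match and 2.37% and 2.51% without. These windows are of fixed length on the transcribed strand, CTAAN includes CTAAC, and a match is not a branch site.

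**Figure D5:**
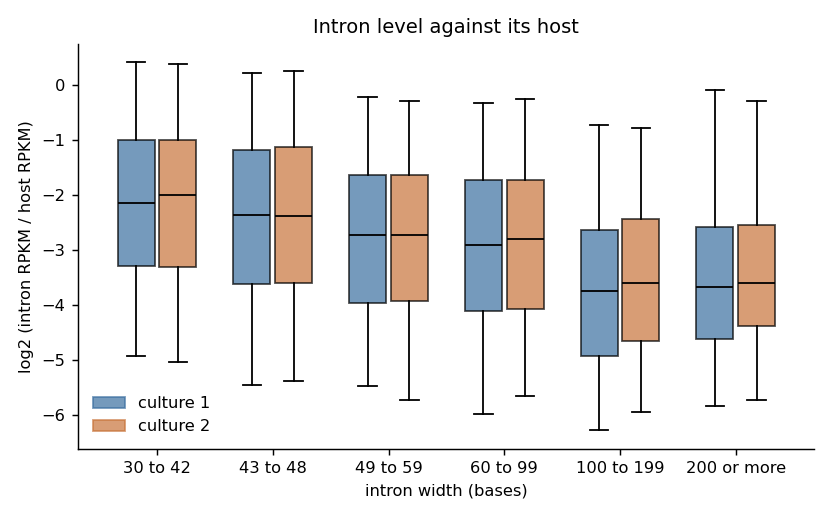
Log2 of intron RPKM over host RPKM by intron width in culture 1 and culture 2, for the introns with at least 20 EI plus JR reads and at least 1 count. Boxes span the quartiles with the median as a line, and whiskers reach the 5th and 95th percentiles. The median fell from 21.3% and 24.4% of the host at 30 to 42 bases to 7.71% and 8.19% at 200 or more.

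Reads assigned to introns behaved differently from boundary reads. Intron RPKM, which counts intron and EI reads over intron width, had a median of 21.3% and 24.4% of host RPKM at 30 to 42 bases, 14.5% and 14.9% at 49 to 59 bases, and 7.71% and 8.19% at 200 bases or more. A boundary read weighs more in a narrow intron, since the width is the divisor, and 1705 of the 5303 introns are narrower than a 49-base read. Reads assigned to the intron for each EI read were 5.69 and 5.80 at 30 to 42 bases and lowest at 43 to 48 bases (3.93 and 4.01). They reached 17.8 and 18.2 between 100 and 200 bases and 134 and 138 at 200 or more. A 49-base read cannot lie wholly within an intron narrower than itself, so the ratio is not alike across widths. In the widest class 1 intron held 40.2% and 43.9% of the intron reads, that of snoR61. Without the 9 introns that overlap another transcript the ratio was 87.7 and 92.4, and without that of snoR61 as well, a choice made after seeing the data, it was 30.1 and 27.3.

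The introns with the most reads carry or overlap other RNAs. The intron of snoR61 (SPNCRNA.445), listed among noncoding RNAs, had 81005 and 136650 reads with 6 and 4 EI reads and 16 and 39 JR reads. The introns of pfd1, fta3, cpc2 and rpl701 overlap an annotated snoRNA and had 13628 to 20219 reads in culture 1, with 1 to 5 EI reads each. That of SPAC29A4.02c also overlaps a snoRNA, and had 15139 and 22181 reads with 52 and 85 EI reads. Reads of the snoRNA and of the intron cannot be told apart at such loci. The mitochondrial SPMIT.05 intron, of 2526 bases, held 115422 and 151769 reads and contains SPMIT.06, and it is outside the nuclear set.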

How the data were processed

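RNA was measured in 2 wild-type cultures grown and processed separately. As the authors describe, 49-base reads were aligned with Bowtie against Ensembl build EF1 and a set of exon-exon junctions, and reads matching multiple loci were removed. The deposited counts are whole reads for each locus as tabulated by the authors, without normalization, with reads across the 5′ exon-intron boundary apart. The deposited log2 values are log2 of RPKM plus 1e-05, and for splicing efficiency log2 of junction reads plus 1 over boundary reads plus 1. Mutant columns, and the columns of the authors' own comparisons (fold changes, adjusted p and Q-values), were not used, and 0 columns of per-sample values matched no sample.

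Junction reads were recovered from splicing efficiency and boundary reads, and 100% of values came out whole within 0.001. Transcripts were matched by identifier to RefSeq (6844 of 7022). The highest feature ends on chromosomes I and III equal the RefSeq lengths (5579133 and 2452883), and 5287 of 5303 nuclear introns start GT and end AG there. Introns under 30 bases, of tRNA genes or mitochondrial were left out of shares. A minimum of 20 boundary plus junction reads in each culture applied, and 100 for introns named singly. Total counts, introns included, were 25169220 and 36062720. Recovery and binning were run on simulated data built with the same formula, which checks the code and not the deposited values. No test was made, as there is 1 group. Python 3.11.15, pandas 2.3.3 and SciPy 1.17.1 were used.

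Named loci were the strain and mating-type markers, the highest transcripts of each class, the extremes of each gene list, the most and least spliced introns, hosts with the widest range, the widest introns and the loci differing most between cultures, of which those the text needs are given. From the ribosomal protein list, taken by name, 3 RNase P genes caught by the pattern were removed after values were seen. The members and lists were chosen with earlier results of these data known. Alternatives were other minimums, pseudocounts, medians, transcript reads only, TPM, subsets of introns and leaving out each culture.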

Additional observations from a re-analysis of the deposited data

How the results depend on the processing

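Values are means of the cultures. With transcript reads only in the total, the share of coding transcripts was 84.6%, of noncoding RNAs 7.38%, snoRNAs 3.70%, nuclear tRNAs 0.561%, mitochondrial protein genes 1.21% and mitochondrial tRNAs 1.10%. On the TPM scale the medians were 26.2 for coding transcripts, 1.50 for noncoding RNAs, 1382 for snoRNAs, 2276 for snRNAs, 786 for mitochondrial protein genes and 532 for mitochondrial tRNAs. Among loci with at least 10 counts in each culture the median RPKM was 33.4 for coding transcripts, 2.94 for noncoding RNAs, 2315 for snoRNAs and 90.5 for nuclear tRNAs, which therefore depend most on the filter.

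The median unspliced share of 1.68% became 3.31% with a pseudocount of 1, 2.29% with 0.5 and 0.962% with a minimum of 100 reads. The share of summed reads of 2.35% became 2.63% with a minimum of 5 and 1.67% with 100, and the share of introns over 50% unspliced went from 1.13% to 2.51% and 0.682%. The difference of 30 to 42 bases minus 200 or more, 0.945 percentage points in summed reads, reversed to -0.433 in medians, and was 1.29 and 0.374 with minimums of 5 and 100. First minus last introns reversed from 0.207 to -0.386 in medians and was 0.787 among introns of 43 to 200 bases. Internal minus sole introns, 1.33, was 0.50 in medians and 0.749 among introns of 43 to 200 bases. Its direction differed between host quintiles, as given above. The lowest minus the highest quintile of hosts kept its direction, at 2.17 in medians and 6.37 and 1.06 with minimums of 5 and 100. Reads per base of introns of 200 bases or more over those of 60 to 99 bases, a ratio of 1.41, fell below 1, to 0.556, per start position of a 49-base read, which cannot be had for narrower introns. That divisor holds only for reads wholly inside an intron. Introns of 30 to 42 bases were nevertheless assigned 7074 reads in culture 1 and 10557 in culture 2, so assigned reads can reach beyond the intron. The value of 0.556 therefore does not decide the direction. The intron reads for each EI read in the widest class, 136, were 90.1 without introns that overlap another transcript and, in an alternative chosen after seeing the data, 28.7 without the intron of snoR61 as well. The causes were not tested. Leaving out either culture moved these summaries by less than the SD between cultures, which follows from having 2. No paired analysis was possible because no comparison between strains was made.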
